A study of Mus musculus with 19 samples.

Results

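The genes described here are 10 leukocyte integrin and adhesion genes, Itgal, Itgam, Itgax, Itgb2, Itga4, Itgb1, Itgb7, Itgae, Selplg and Icam1, out of 27745 distinct gene names on the array. They were taken by name alone: every non-control probe whose gene name in the scanner files is one of the 10 belongs to the set, which gives 23 probes of 41174. No measured value entered that choice, but earlier results of these arrays were known when the genes were picked, and Itgam and Icam1 are also among the genes that the study singled out from these arrays.

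Leukocyte RNA was taken from the blood of male DBA/2 and B6 mice after intraperitoneal CAWS, a mannan-rich extract that Candida albicans releases into its culture medium and that induces coronary arteritis in mice. The arrays hold 18 RNA samples in 10 groups, each strain sampled at 0 w and at 4 further times up to 9 w (2 w, 4 w and 8 w between them); every group has 2 samples except the B6 groups of 2 w and of 9 w, which have 1. Every group had received CAWS on consecutive days, and 0 w is the time right after the last injection, so no group here is free of the treatment. The later groups hold mice that had survived to that week, and ages are given by the study as 1 range for all mice. The samples are labelled as biological replicates, and where a label does not tie a sample to its own mouse, the p values measure only the spread between these samples. In bulk RNA, fewer cells of a type and less RNA per cell cannot be told apart, which holds for every result below.

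Integrins are heterodimers of an alpha and a beta chain that bind ligands on other cells or in the matrix. The beta2 chain, encoded by Itgb2, pairs with the alpha chains of Itgal (LFA-1, on most leukocytes), Itgam (Mac-1, on neutrophils, monocytes and macrophages) and Itgax (on dendritic cells and macrophages), and these bind Icam1 on endothelium and on other leukocytes. The alpha4 chain of Itga4 pairs with beta1 (Itgb1) or beta7 (Itgb7), and beta7 also pairs with the alphaE chain of Itgae, which holds lymphocytes at epithelia. Selplg encodes PSGL-1, the selectin counter-receptor on which leukocytes roll before integrins arrest them.

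The authors deposited the processed signal of the scanner software, an intensity with the background subtracted. Values below are normalized log2 signals: log2 of that intensity minus the 75th percentile of the same array, so that 0 is the signal of the 75th percentile and 1 unit is a 2-fold difference. Levels of different probes are not compared with each other. Changes are limma estimates ± standard error, called at a Benjamini-Hochberg adjusted p under 0.05 over all probes tested. Where a gene has several probes, probe 1 is the brightest on average and is meant unless another is named. Of the 23 probes, 21 were well above background in at least 2 samples and were tested. The exceptions, Itgae probe 2 and Itgb1 probe 3, were never well above background, and 15 of the 23 were well above it in all 18 samples. Left unscaled, as the deposited value table holds them, the values of all probes shift by a median of 0.53 on the log2 scale for the B6 change, -0.60 for the strain difference and 0.82 for the gap between strains at 0 w, and a direction that turns under this or another scaling is given with its turned value. Across the array, from 33.9% to 51.4% of spots were well above background.

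In DBA/2 mice, Itgam, Itgax, Itgb2, Selplg, Icam1 and Itgb1 rose from 0 w to the mean of 4 w and 8 w, by 0.41 to 1.42 on the log2 scale (n = 4 later samples and 2 at 0 w). Itgal, Itga4, Itgb7 and Itgae did not pass the test. Normexp background correction was run with an offset of 50 added to each signal. It left 586 of all probes called in this comparison, against 5246 before. After normexp correction the calls of Itgb2, Selplg and Icam1 held, while those of Itgam (0.70, adjusted p = 0.28), Itgax (0.44, adjusted p = 0.39) and Itgb1 (0.37, adjusted p = 0.25) were lost. By probe, 9 of the 21 tested were higher, where 9.80% of all 22936 probes were, and 1 was lower, where 13.1% were. Of all probes called, 42.9% were thus higher, a share that was 53.8% after quantile normalization, 63.0% with the percentile taken over all probes, 14.0% with scaling on pan-leukocyte genes and 32.6% without scaling. Counted in either direction, the members called were 10 of 21 against 22.9% of all probes. The median change was 0.54 over the main probes of the 10 genes and -0.14 over all probes. In B6 mice, 7 of the 21 probes were called against 15.0% of all, 3 higher and 4 lower, none of them after normexp correction (limma, 2 at an unadjusted p under 0.05), and the median over the main probes was 0.03. The strain difference, the DBA/2 change minus the B6 change, was called for 10 of 21 probes against 13.2% of all. Of these, 9 were positive, with Itgb7 and Selplg probe 1 turning negative without scaling (-0.13 and -0.12), and after normexp correction limma called none of the 21, with 6 at an unadjusted p under 0.05. Among all probes, 1671 were called higher and 1774 lower in B6 mice, and 1486 positive and 1543 negative in the strain difference. The strain difference shares its samples with the change in each strain.

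**Figure D1:**
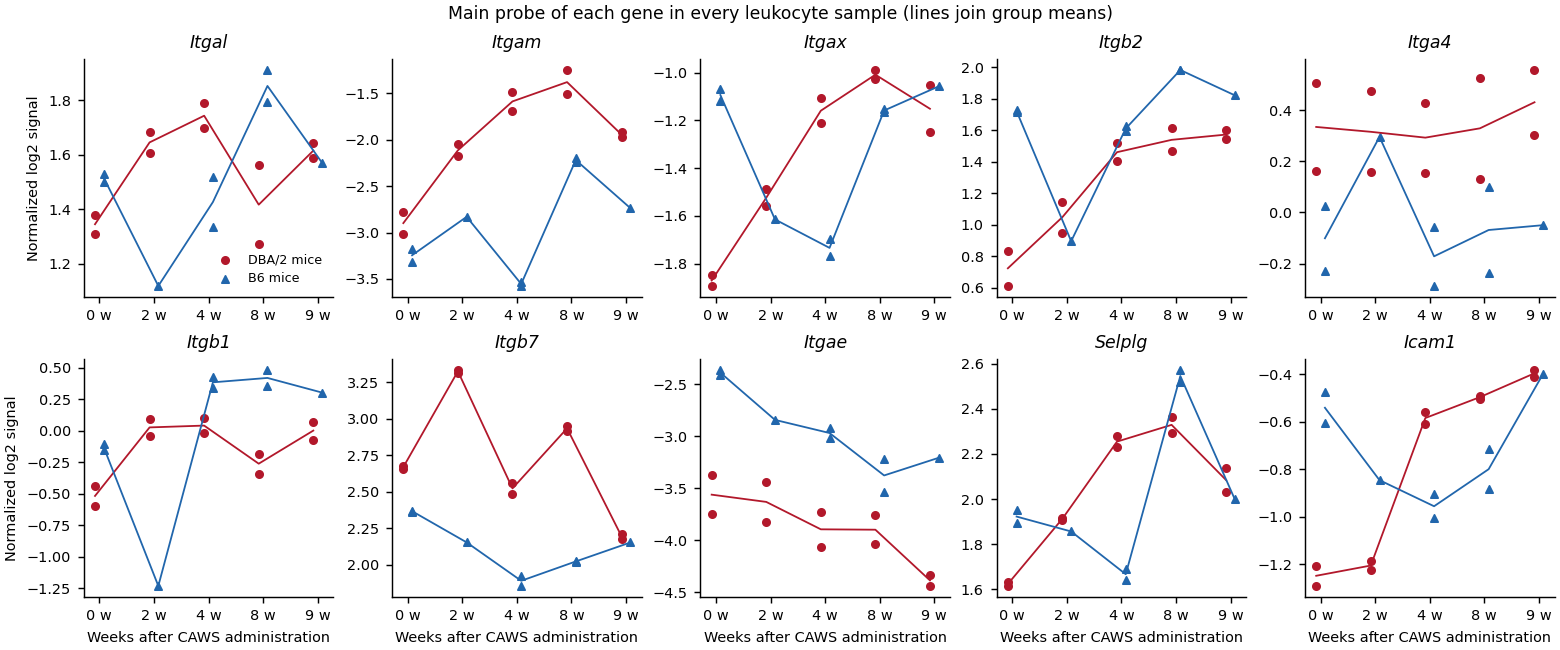
Normalized log2 signal of the main probe of each of the 10 genes (vertical axes, each with its own range) against weeks after CAWS administration (evenly spaced, not to scale); each point is 1 RNA sample, circles DBA/2 and triangles B6 mice, and lines join group means. Itgam, Itgax, Itgb2, Selplg and Icam1 lie higher at 4 w and 8 w than at 0 w in DBA/2 mice, and Itgb1 is low in the single B6 sample at 2 w.

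Itgam, the alpha chain of the complement receptor Mac-1, had the largest change of the 10 main probes in DBA/2 mice. Its 2 samples read -3.01 and -2.78 at 0 w, -2.05 and -2.18 at 2 w, -1.48 and -1.69 at 4 w, -1.51 and -1.25 at 8 w, and -1.97 and -1.91 at 9 w. All 8 later samples lay above both 0 w samples. The mean of 4 w and 8 w was 1.42 ± 0.11 above 0 w, or 2.67-fold (adjusted p = 1.6e-05), and probe 2 gave 1.63 ± 0.21. Within the slide that holds replicate 1 of DBA/2 mice from 0 w to 8 w the change was 1.52, and within the slide of replicate 2 it was 1.32.

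In B6 mice Itgam went through both sides of its 0 w level. It read -3.17 and -3.32 at 0 w, -2.83 in the 2 w sample, -3.58 and -3.53 at 4 w, -2.19 and -2.24 at 8 w, and -2.74 in the 9 w sample. The 4 w samples lay below both 0 w samples (-0.31 ± 0.12, adjusted p = 0.13) and the 8 w samples above them (1.03 ± 0.12, adjusted p = 0.00033). The mean of both weeks in B6 mice was 0.36 ± 0.11 (adjusted p = 0.0499). That call was lost when any 1 of 12 samples was left out (adjusted p 0.0529 to 0.279), and the value was -0.10 after normexp correction. The 8 w change in B6 mice likewise turned to -0.10 after normexp correction. The strain difference was 1.06 ± 0.15 over both weeks (adjusted p = 0.0017; 0.45 without scaling, adjusted p = 0.072), 1.62 ± 0.17 at 4 w alone and 0.49 ± 0.17 at 8 w alone (adjusted p = 0.083).

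Itgax encodes the alpha chain CD11c and lies 66910 bases from Itgam on the same strand of chromosome 7. Its DBA/2 samples read -1.85 and -1.89 at 0 w, -1.49 and -1.56 at 2 w, -1.11 and -1.21 at 4 w, -0.99 and -1.03 at 8 w, and -1.05 and -1.25 at 9 w. All 8 later samples lay above both at 0 w, and the change was 0.79 ± 0.07, or 1.73-fold (adjusted p = 7.3e-05; 0.80 and 0.77 within the 2 slides). In B6 mice Itgax read -1.12 and -1.07 at 0 w, -1.62 in the 2 w sample, -1.77 and -1.70 at 4 w, -1.15 and -1.16 at 8 w, and -1.06 in the 9 w sample, so that it started high and dipped. Itgax fell by 0.64 to 4 w (adjusted p = 0.0012) and was back near its 0 w level at 8 w (-0.06 ± 0.09). The strain difference, 1.14 ± 0.10, was the largest of the 10 main probes (adjusted p = 0.00016; 0.54 without scaling, adjusted p = 0.0070).

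The second Itgax probe, built on a cDNA clone and lying 16700 bases upstream of the first on the array's mm8 coordinates, did not follow. Its DBA/2 change was -0.03 ± 0.27 and its strain difference 0.14 ± 0.38, and its 18 samples spread from -3.21 to -1.74. It was well above background in all samples, so that the rise of Itgax rests on the probe of the RefSeq transcript. Averaging both probes gave 0.38 in DBA/2 mice (adjusted p = 0.062).

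Itgal encodes the alpha chain of LFA-1, the main Icam1 receptor of lymphocytes. Its DBA/2 samples read 1.38 and 1.31 at 0 w, 1.68 and 1.61 at 2 w, 1.79 and 1.70 at 4 w, 1.56 and 1.27 at 8 w, and 1.64 and 1.59 at 9 w. The mean of 4 w and 8 w was 0.24 ± 0.09 above 0 w (adjusted p = 0.11), and 1 of the 8 w samples lay below both 0 w samples. The call at 4 w alone, 0.40 ± 0.11 (adjusted p = 0.038), was lost when any 1 of 10 samples was left out, with changes of 0.35 to 0.44, and with scaling on pan-leukocyte genes (0.10, adjusted p = 0.55). In B6 mice probe 1 was highest at 8 w, with 1.91 and 1.79 against a mean of 1.52 at 0 w (0.34 ± 0.11, adjusted p = 0.055). Probe 2 went the other way there, with 0.54 and 0.66 at 8 w against 1.28 and 1.45 at 0 w (-0.76 ± 0.16, adjusted p = 0.0090, and 0.26 without scaling; adjusted p = 0.058 without B6 8 w replicate 1 and 0.063 without B6 0 w replicate 2).

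Itgb2 encodes the beta2 chain that all the alpha chains above require, and has a single probe. The DBA/2 samples read 0.84 and 0.61 at 0 w, 1.15 and 0.95 at 2 w, 1.52 and 1.41 at 4 w, 1.61 and 1.47 at 8 w, and 1.60 and 1.54 at 9 w. Every later sample lay above both 0 w samples, and the rise was 0.78 ± 0.09, or 1.71-fold (adjusted p = 0.00024; 0.73 and 0.82 within the 2 slides). B6 mice stood higher at the start, with 1.73 and 1.71 at 0 w, 0.90 in the 2 w sample, 1.59 and 1.63 at 4 w, 1.98 in both samples at 8 w, and 1.82 in the 9 w sample. The 2 w sample, the lowest of the strain, was 0.83 below 0 w (adjusted p = 0.0019). That group has 1 sample, whose spread is assumed to be that of the other groups, and the same sample had a summed platelet marker level of 130 times the 75th percentile signal against 284 to 495 in all others, whose part was not tested. Over 4 w and 8 w the B6 change of Itgb2 was 0.08 ± 0.09 (adjusted p = 0.66, 95% interval -0.12 to 0.28). The strain difference in the change was 0.70 ± 0.13 (adjusted p = 0.0062), and it followed a gap of 1.00 between the strains at 0 w. Neither was called without scaling, where the strain difference was 0.10 (adjusted p = 0.66) and the DBA/2 minus B6 difference at 0 w was -0.18 (adjusted p = 0.27). At 4 w that gap was -0.15 ± 0.10 for DBA/2 minus B6 (adjusted p = 0.32; 0.65 without scaling, adjusted p = 0.0019), with an interval of -0.38 to 0.08, and at 8 w both DBA/2 samples lay below both B6 samples.

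**Figure D2:**
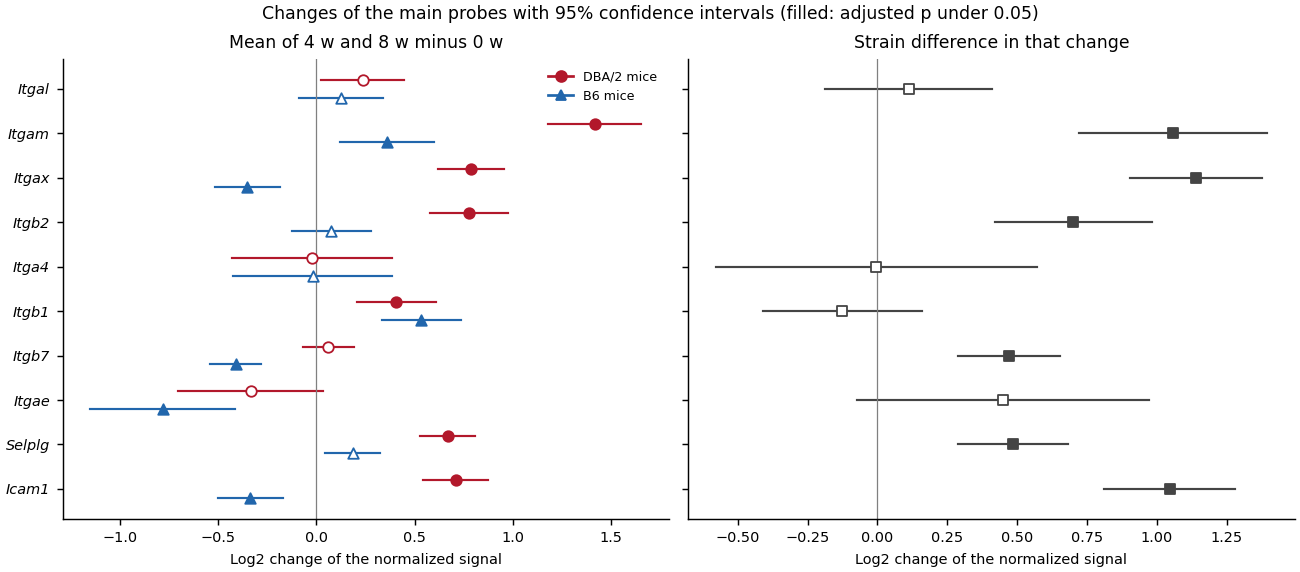
Log2 change of the normalized signal of the main probe of each gene (horizontal axes) with its 95% confidence interval; on the left the mean of 4 w and 8 w minus 0 w in DBA/2 (circles) and B6 mice (triangles), on the right the DBA/2 change minus the B6 change (squares); filled symbols have an adjusted p under 0.05. Itgam has the largest change in DBA/2 mice, 1.42, while Itgb1 is filled in both strains with a strain difference of -0.13; without between-array scaling the strain differences of Itgb7 and Selplg turn negative.

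Selplg and Icam1 also rose in DBA/2 mice, Selplg already at 2 w (0.29, adjusted p = 0.024; 0.03 without scaling and 0.13 after quantile normalization, neither called) and Icam1 from 4 w. In these mice Selplg read 1.63 and 1.62 at 0 w, 1.92 and 1.91 at 2 w, 2.28 and 2.23 at 4 w, 2.29 and 2.36 at 8 w, and 2.14 and 2.03 at 9 w. All 8 later samples lay above 0 w and the rise was 0.67 ± 0.06, or 1.59-fold (adjusted p = 6.9e-05; 0.65 and 0.68 within the 2 slides). Its second probe gave 0.90 ± 0.11. B6 mice differed: Selplg fell by 0.26 at 4 w (1.69 and 1.64 against 1.95 and 1.89 at 0 w, adjusted p = 0.040, lost when any 1 of 14 samples was left out, with changes of -0.28 to -0.23) and rose by 0.62 at 8 w (2.52 and 2.57, adjusted p = 0.00027). The strain difference was accordingly 0.89 ± 0.10 at 4 w and 0.08 ± 0.10 at 8 w (adjusted p = 0.67). Over both weeks it was 0.48 ± 0.09 (adjusted p = 0.0066), and without scaling it was -0.12.

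Icam1, the endothelial and leukocyte ligand of LFA-1 and Mac-1, is printed 10 times on each array, and the log2 signals of these spots had a median standard deviation of 0.064 per array. The DBA/2 samples read -1.29 and -1.21 at 0 w and -1.23 and -1.18 at 2 w, then -0.56 and -0.61 at 4 w, -0.49 and -0.50 at 8 w, and -0.41 and -0.38 at 9 w. The groups at 0 w and 2 w overlapped and the 6 samples from 4 w on lay apart above them. The rise was 0.71 ± 0.07, or 1.63-fold (adjusted p = 0.00013; 0.77 and 0.65 within the 2 slides), and it was 0.04 ± 0.09 at 2 w.

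In B6 mice Icam1 read -0.61 and -0.48 at 0 w, -0.85 in the 2 w sample, a mean of -0.96 at 4 w, -0.88 and -0.72 at 8 w, and -0.40 in the 9 w sample. Icam1 fell by 0.41 to 4 w (adjusted p = 0.011; adjusted p = 0.060 without scaling; adjusted p = 0.072 without B6 4 w replicate 1 and 0.080 without B6 0 w replicate 2). The strain difference was 1.05 ± 0.10 (adjusted p = 0.00026; 0.44 without scaling, adjusted p = 0.027), 1.08 ± 0.12 at 4 w and 1.01 ± 0.12 at 8 w; at 8 w alone it was -0.18 without scaling. Icam1 probe 2 was well above background in only 2 samples, 1 of DBA/2 mice at 4 w and 1 at 8 w, which gives no fold.

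Promoter sequence is shown for the alpha chains that rose and for Icam1, since these have an entry in RefSeq's promoter table for GRCm38.p6, which matched 6 of the 10 members. The 250 bases before each gene's start were searched on both strands for the interferon-gamma activated site TTCNNNGAA and for the core GAGGAA that PU.1, a myeloid transcription factor, can bind; the motifs do not overlap. Capitals mark the matches. The Itgam window (chr7:128062390-128062639, + strand) held GAGGAA 84 bases before the start and its reverse complement 15 bases before it, the Itgax window (chr7:128129300-128129549, + strand) held neither motif, and the Icam1 window (chr9:21015690-21015939, + strand) held TTCCCGGAA 42 bases before the start.
Itgam: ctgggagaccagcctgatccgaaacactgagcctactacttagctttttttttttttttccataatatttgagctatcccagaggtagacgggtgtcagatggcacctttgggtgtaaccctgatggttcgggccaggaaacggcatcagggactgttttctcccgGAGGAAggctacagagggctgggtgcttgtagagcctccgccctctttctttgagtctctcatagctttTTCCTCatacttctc
Itgax: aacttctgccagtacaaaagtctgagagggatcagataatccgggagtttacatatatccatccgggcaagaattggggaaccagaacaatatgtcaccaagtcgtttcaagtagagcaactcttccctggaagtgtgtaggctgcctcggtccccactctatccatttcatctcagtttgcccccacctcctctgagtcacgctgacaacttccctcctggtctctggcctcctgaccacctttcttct
Icam1: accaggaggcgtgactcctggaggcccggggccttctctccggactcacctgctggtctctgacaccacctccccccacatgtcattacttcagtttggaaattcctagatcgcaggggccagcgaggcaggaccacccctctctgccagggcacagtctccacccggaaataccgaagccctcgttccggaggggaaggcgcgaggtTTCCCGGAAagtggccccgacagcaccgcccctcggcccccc
Of all 32851 windows of the same length in that table, 7.02% held TTCNNNGAA and 23.3% held GAGGAA, so that a match is a description of the letters and not a site. Among the other members with an entry, the Itgb1 window held GAGGAA 9 bases before the start and the Itga4 and Itgb7 windows held neither motif.

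Of the beta1 and beta7 chains and their alpha partners, Itgb1 alone was called on its main probe over 4 w and 8 w in DBA/2 mice. Itgb1, also printed 10 times per array, rose in both strains. The DBA/2 samples read -0.44 and -0.59 at 0 w, 0.10 and -0.04 at 2 w, 0.10 and -0.02 at 4 w, -0.18 and -0.34 at 8 w, and 0.07 and -0.07 at 9 w. All 8 later samples lay above 0 w (0.41 ± 0.09, adjusted p = 0.0097; 0.33 with adjusted p = 0.10 without DBA/2 0 w replicate 2, 0.14 with adjusted p = 0.23 when arrays were scaled on pan-leukocyte genes, 0.31 with adjusted p = 0.061 without scaling, and 0.08 ± 0.11 by probe 2). In B6 mice it read -0.11 and -0.16 at 0 w, 0.43 and 0.34 at 4 w, and 0.48 and 0.36 at 8 w, a rise of 0.53 ± 0.09 (adjusted p = 0.0035; 1.07 without scaling; 0.43 ± 0.11 by probe 2, a call that was lost without any 1 of 4 B6 samples of 0 w, 4 w or 8 w, with values of 0.33 to 0.53). The strain difference was -0.13 ± 0.13 (adjusted p = 0.63), with an interval of -0.41 to 0.16.

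The B6 sample at 2 w stood far below all others for Itgb1. It read -1.23, against -0.59 for the next lowest of the 18 samples, a fall of 1.10 from 0 w (adjusted p = 0.00034) that probe 2 shared at -1.25, and 0.16 units of log2 is the largest range between replicates of Itgb1 in any group. The group holds this 1 sample, and the summed level of the 8 platelet marker genes was lowest in it (130). Over the 18 samples Itgb1 and the mean log2 level of the platelet list had a Pearson r of 0.98, and 0.95 over the 16 left without B6 2 w replicate 1 and DBA/2 0 w replicate 2; the points share their arrays and scaling. The part of platelet RNA in the Itgb1 values was not tested.

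**Figure D3:**
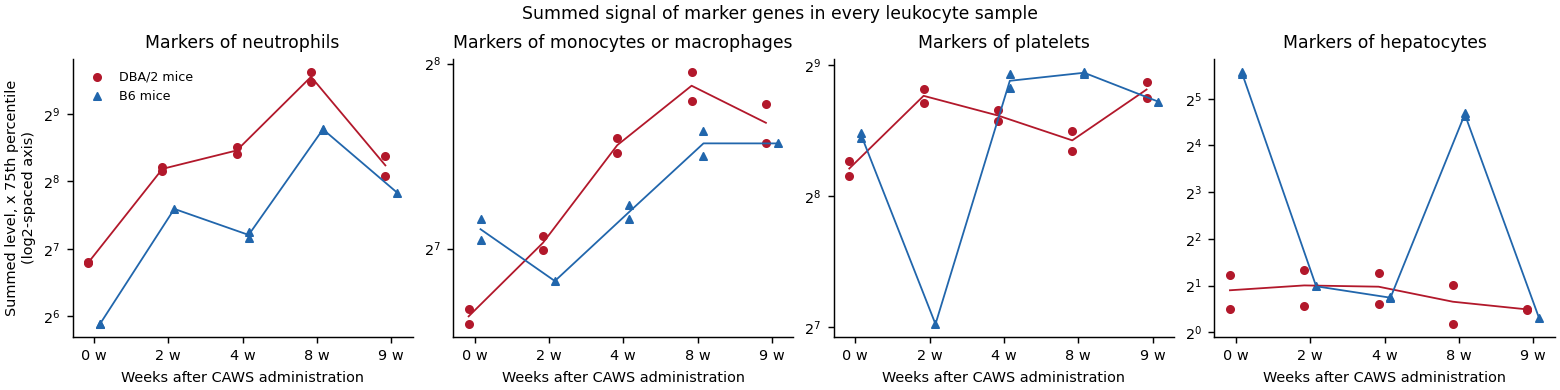
Summed signal of marker genes, in multiples of the array's 75th percentile on a log2-spaced axis, against weeks after CAWS administration (evenly spaced, not to scale); points are RNA samples, circles DBA/2 and triangles B6 mice, and lines join group means. Platelet markers are lowest in the B6 2 w sample, at 130, and hepatocyte markers stand apart in B6 mice at 0 w and 8 w, at 24.8 to 47.8 against 2.54 or less elsewhere.

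Itgb7, which pairs with alpha4 or alphaE and guides lymphocytes to the gut, was the most precisely measured main probe, with a median standard deviation between replicates of 0.021. The DBA/2 samples read 2.66 and 2.68 at 0 w, 3.34 and 3.32 at 2 w, 2.56 and 2.49 at 4 w, 2.95 and 2.92 at 8 w, and 2.17 and 2.21 at 9 w. It was thus highest at 2 w (0.66 ± 0.07, adjusted p = 0.00033) and lowest at 9 w (-0.48 ± 0.07, adjusted p = 0.00071), and the mean of 4 w and 8 w, 0.06 ± 0.06, hides this course. In B6 mice all 6 later samples lay below both 0 w samples, which read 2.36 and 2.37, and ranged from 1.85 at 4 w to 2.15 in the single samples of 2 w and 9 w. The B6 fall over 4 w and 8 w was 0.41 (adjusted p = 0.0013; a change of 0.12 without scaling). The strain difference was 0.47 ± 0.08 (adjusted p = 0.0051), and -0.13 without scaling.

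Itgae, which encodes the alphaE chain CD103, was dim and the replicates of its main probe differed by a median standard deviation of 0.21. In B6 mice it read -2.36 and -2.42 at 0 w, -2.84 in the 2 w sample, -3.02 and -2.92 at 4 w, -3.54 and -3.22 at 8 w, and -3.21 in the 9 w sample, all 6 later samples below 0 w. The fall was 0.78 (standard error 0.16, adjusted p = 0.011), and it was not called without B6 0 w replicate 1 (-0.76, adjusted p = 0.087) or replicate 2 (-0.81, adjusted p = 0.067), nor without scaling, where it was -0.26 (adjusted p = 0.25). DBA/2 mice were lower throughout, from -3.37 to -4.44, and the strains did not overlap at any week. Their change was -0.33 ± 0.16 over 4 w and 8 w (adjusted p = 0.19) and -0.82 ± 0.19 by 9 w (adjusted p = 0.010; -0.64 with adjusted p = 0.079 without DBA/2 0 w replicate 2, and 0.72 with adjusted p = 0.18 after normexp correction). At 9 w Itgae was well above background in 1 of the 2 DBA/2 arrays, so the fall by 9 w includes a sample near the floor. The strain difference in the change over 4 w and 8 w was 0.45 ± 0.23 (adjusted p = 0.27), with an interval of -0.07 to 0.97.

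Itga4 encodes the alpha4 chain of VLA-4, the Vcam1 receptor, and its main probe gave no called change in any comparison with 0 w. The change over 4 w and 8 w was -0.02 ± 0.18 in both strains. In every group of 2 the replicate 1 sample was the higher one, by 0.23 to 0.39, and replicate 1 and replicate 2 samples were scanned on different days. With the replicate number as a block the DBA/2 minus B6 difference at 0 w of 0.43 was called (adjusted p = 0.00079), which it was not without the block (adjusted p = 0.15).

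Itga4 probe 2, built on a cDNA clone and lying 6427 bases upstream of probe 1, followed another course. The DBA/2 samples read -1.52 and -1.76 at 0 w, -2.05 and -2.12 at 2 w, -2.25 and -2.40 at 4 w, -2.72 and -2.87 at 8 w, and -2.14 and -2.30 at 9 w. All 8 later samples lay below both 0 w samples and the fall was 0.92 (standard error 0.09, adjusted p = 0.0001; -0.96 and -0.87 within the 2 slides; -0.57 with adjusted p = 0.54 after normexp correction). In B6 mice the 7 samples up to 8 w lay between -2.17 and -2.04, and the change was 0.06 ± 0.09. The 9 w sample, at -1.56, was 0.57 above 0 w (adjusted p = 0.025; 0.065 and 0.099 without either B6 0 w sample), with the spread of this single sample assumed to be that of the other groups. The strain difference was -0.98 ± 0.13 (adjusted p = 0.0012), the one negative call among the 10. The other 4 Itga4 probes were well above background in 4 to 13 samples, and none had a called change from 0 w.

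**Figure D4:**
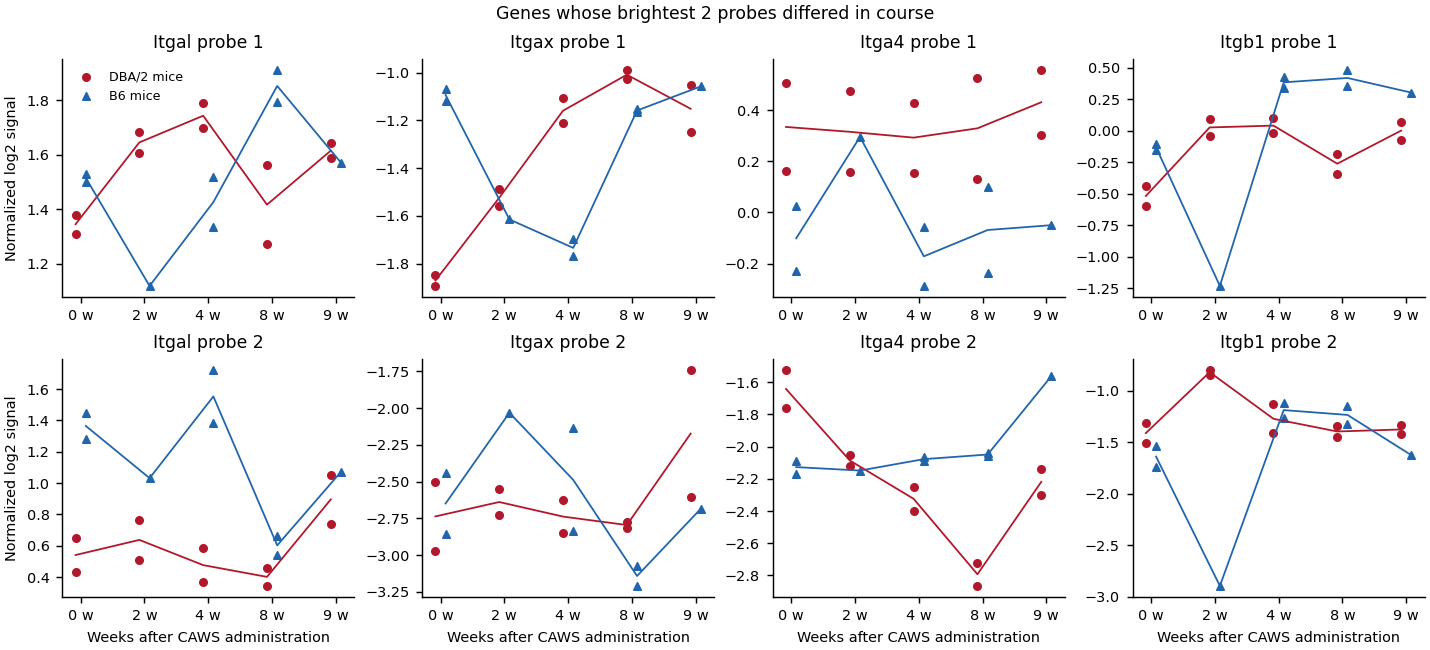
Normalized log2 signal (vertical axes) of the brightest 2 probes of Itgal, Itgax, Itga4 and Itgb1 against weeks after CAWS administration (evenly spaced, not to scale); points are RNA samples, circles DBA/2 and triangles B6 mice, and lines join group means. Itgax probe 1 is higher at 4 w and 8 w than at 0 w in DBA/2 mice by 0.79 while probe 2 changes by -0.03, Itga4 probe 2 falls by 0.92 where probe 1 changes by -0.02, and both Itgb1 probes are lowest in the B6 2 w sample.

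The main probes lie, on the mm8 coordinates of the scanner files, at chr7:127125992-127126051 (Itgal), chr7:127908567-127908627 (Itgam), chr7:127941686-127941745 (Itgax), chr10:77008949-77009008 (Itgb2), chr2:79131372-79131431 (Itga4), chr8:131618682-131618741 (Itgb1), chr15:102044053-102044112 (Itgb7), chr11:72961798-72963256 (Itgae), chr5:114079539-114079566 (Selplg) and chr9:20779144-20779203 (Icam1). Itgax probe 2 lies at chr7:127924986-127925045 and Itga4 probe 2 at chr2:79124945-79125004. Exon positions on this build were not analysed here.

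Week by week, most calls of members were higher in DBA/2 mice. For DBA/2 mice the calls were 8 of the 21 probes at 2 w, against 15.7% of all probes, 10 at 4 w against 14.8%, 10 at 8 w against 24.0% and 12 at 9 w against 27.7%. Of these, 7, 9, 9 and 9 were higher (1813 of 3606, 1739 of 3400, 2298 of 5500 and 3066 of 6349 for all probes called). For B6 mice they were 4 at 2 w against 13.0%, 6 at 4 w against 15.7%, 8 at 8 w against 21.2% and 1 at 9 w against 9.34%, the first and last from 1 sample each. At 4 w 4 of 6 were lower, where 2217 of the 3599 called among all probes were. At 8 w 5 of 8 were higher, where 2514 of 4862 were. On the B6 group means, Itgam, Itgax, Itga4, Itgb7, Selplg and Icam1 were lowest at 4 w. Itgal, Itgam, Itgb2, Itgb1 and Selplg were highest at 8 w. Samples overlapped with another week for Itga4 at 4 w and for Itgb1 at 8 w.

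Within slides the B6 values could be compared for 4 w and for 2 w, 8 w and 9 w on 1 slide each. At 4 w the changes on the 2 slides were -0.40 and -0.21 for Itgam, -0.65 and -0.64 for Itgax, -0.26 and -0.22 for Selplg, -0.40 and -0.41 for Icam1, 0.54 and 0.49 for Itgb1, and -0.51 and -0.36 for Itgb7. At 8 w on the slide that also holds an array of B6 0 w replicate 2 they were 1.08 for Itgam and 0.71 for Selplg. All of these have the sign of the change over all samples.

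At 0 w the strains already differed for 12 of the 21 probes, where 32.7% of all probes did. After normexp correction they differed for 3, where 1182 of all 22937 probes were called. The DBA/2 arrays of 0 w lie on slides 2 and 5, and the B6 arrays of 0 w on slides 1, 3 and 6. Strain and slide therefore cannot be told apart in this comparison. DBA/2 mice were lower for Itgae by 2.25-fold and Itgb2 by 2.00-fold, calls that were lost without scaling (log2 differences of -0.35 with adjusted p = 0.13 and -0.18 with adjusted p = 0.27), and higher for Itgb7 by 1.23-fold. They were also lower for Itgax by 1.71-fold, Icam1 by 1.63-fold, Itgb1 by 1.31-fold and Selplg by 1.23-fold, where without scaling the log2 differences of DBA/2 minus B6 were 0.04, 0.12, 0.45 and 0.52 (adjusted p of the scaled values for these 7 genes from 7.5e-05 to 0.018). The calls for Itgb1 were lost without DBA/2 0 w replicate 2 (-0.31, adjusted p = 0.11) or either B6 0 w sample (-0.36 and -0.41, adjusted p = 0.087 and 0.058), and those for Selplg without DBA/2 0 w replicate 2 (-0.29, adjusted p = 0.053) or B6 0 w replicate 1 (-0.27, adjusted p = 0.068) and after quantile normalization (-0.09, adjusted p = 0.41).

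By 4 w the order of the scaled values had turned for Itgax, Selplg and Icam1, among the genes named next. On the group means, Itgam and Itgb7 had been higher in DBA/2 mice at 0 w already, and Itgae and Itgb1 lower. The DBA/2 arrays of 4 w lie on slides 2 and 5, and the B6 arrays of 4 w on slides 1 and 3. Strain and slide therefore cannot be told apart here either. At 4 w 11 of 21 probes were called, against 32.1% of all. DBA/2 mice were then higher for Itgam by 3.91-fold (adjusted p = 2.4e-06), Itgb7 by 1.55-fold, Selplg by 0.59 on the log2 scale, Itgax by 1.49-fold and Icam1 by 1.29-fold, and lower for Itgae by 1.90-fold and Itgb1 by 1.27-fold; without scaling the log2 difference of Itgae was -0.12 (adjusted p = 0.60) and that of Itgb1 turned to 0.45. After normexp correction the differences of Itgam, Itgax and Icam1 were 0.46, 0.11 and 0.16 and were not called (adjusted p = 0.31, 0.67 and 0.39), and scaled on pan-leukocyte genes that of Icam1 was 0.05 (adjusted p = 0.70). Among the other probes called at 4 w, Itgal probe 2 was lower in DBA/2 mice, at -1.08 (adjusted p = 0.00079). Without scaling it was -0.27 (adjusted p = 0.27). Itgal probe 1 gave 0.32 and was not called (adjusted p = 0.051), so the sign for Itgal depended on the probe. At 0 w Itgal probe 2 already read 0.44 and 0.65 in DBA/2 mice, against 1.28 and 1.45 in B6 mice. Itgam probe 2 (1.56), Selplg probe 2 (0.47) and Itga4 probe 5 were called higher at 4 w. The 4 w comparison was added after the data had been seen, because the level of hepatocyte genes was low in both strains at 4 w.

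Marker genes of liver cells stood apart in 4 of the 18 samples. The summed level of 11 hepatocyte genes was 46.5 to 47.8 times the 75th percentile in B6 mice at 0 w and 24.8 to 26.1 at 8 w, and 1.13 to 2.54 in the other 14 samples. The replicates within each of these B6 groups thus lay close together. Whether they came from separate mice was not tested, and the p values measure only the spread between samples. Of the 11, 9 fell from 0 w in B6 mice and 10 were lower in DBA/2 than in B6 mice at 0 w. Every B6 change from 0 w and every strain difference rests on these B6 0 w samples. The part of liver RNA in them was not tested. The estimates of the DBA/2 changes and of the 4 w strain comparison do not use the B6 0 w samples. Their standard errors and p values do, since the spread of each probe was fitted over all groups. The summed level of 10 pan-leukocyte genes was 83.9 to 88.1 in B6 mice at 0 w, within the 79.6 to 95.3 of the other B6 samples, and 69.2 to 82.5 in DBA/2 mice.

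Blood cell markers moved with the members as well. Monocyte or macrophage genes rose in DBA/2 mice, 9 of 11 with a median of 1.57, from a summed level of 96.5 to 102 at 0 w to 183 to 194 at 4 w and 223 to 248 at 8 w. In B6 mice 3 of the 11 rose and 2 fell, and the summed level was 132 to 143 at 0 w, 143 to 151 at 4 w and 181 to 199 at 8 w. Neutrophil genes rose in both strains, 11 of 13 in DBA/2 mice (median 2.06) and 12 of 13 in B6 mice (median 2.15), with a summed level of 110 to 111 at 0 w and 339 to 792 at 4 w and 8 w in DBA/2 mice, and of 59.0 to 59.2 at 0 w, 143 to 153 at 4 w and 437 to 439 at 8 w in B6 mice. NK cell genes rose in DBA/2 mice (5 of 8) (3 with 1 lower when scaled on pan-leukocyte genes) and fell in B6 mice (6 of 8, and 2 without scaling), with summed levels of 5.21 to 5.37 at 0 w and 6.34 to 7.51 at 4 w and 8 w in DBA/2 mice, and of 8.58 to 8.61 and 4.85 to 6.27 in B6 mice. T cell genes fell in both, 7 and 5 of 11, with summed levels of 15.9 to 16.0 at 0 w and 12.3 to 12.9 at 4 w in DBA/2 mice, and of 22.8 to 23.3 and 19.4 to 19.9 in B6 mice, where 3 rose and none fell without scaling. Dendritic cell genes, of which 5 were tested, fell for 1 gene in each strain (none in B6 mice without scaling), and their summed level was 2.08 to 3.85 in DBA/2 and 3.80 to 13.2 in B6 mice.

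Targets of type II interferon, which drives Icam1 transcription in many cells, rose in DBA/2 mice for 11 of 15 genes with 1 lower (median 0.80), and in B6 mice 2 rose and 3 fell, or 11 and 1 without scaling. Their summed level was 28.9 to 30.2 at 0 w, 33.3 to 35.4 at 4 w and 48.4 to 53.6 at 8 w in DBA/2 mice. In B6 mice it was 26.4 to 27.7 at 0 w, 23.7 to 24.5 at 4 w and 34.8 to 35.8 at 8 w. B cell genes fell for 8 of 10 in DBA/2 mice and 1 of 10 in B6 mice, where 6 rose and none fell without scaling. Endothelial genes were near background, with summed levels of 0.316 to 0.570 in all samples, and Tie1, Sele and Emcn were well above background in none. The part of any of these cell types in the member genes was not tested.

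As a description over the 18 samples, which share their arrays, strains and scaling, the probes most like each main probe were sought among 12188 probes well above background in all of them. Itgam was most like Fcgr3, a low-affinity IgG receptor (Pearson r = 0.97), Tirap (0.97) and Lcp2 (0.96), and Itgb2 most like Cyba, a subunit of the NADPH oxidase (0.94), Pkm (0.93) and Gm5069 (0.93). Among those most like Itgax were Marco, a macrophage scavenger receptor (0.92), and Stim2 (0.89). Selplg was most like Ugt1a6b (0.95), Sema4a (0.95) and Pilrb1 (0.95), and Icam1 most like Ahnak (0.90), an unnamed transcript (0.90) and Psap (0.89).

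Itgb1 was most like Asap1 (0.99), Mras (0.98) and Clec1b, the platelet receptor CLEC-2 (0.98). Itgae was most like Mcm6 (0.94), Phc2 (0.93) and Il7r, the interleukin-7 receptor of lymphocytes (0.93). Itgal was most like Wipf1 (0.91), Syap1 (0.90) and Fyb, an adaptor that couples T cell receptors to integrins (0.88). Itga4 was most like Alkbh5 (0.94), Tlk2 (0.93) and Chfr (0.90), and Itgb7 most like Eri1 (0.95), Zfp740 (0.94) and an unnamed transcript (0.85). Among the members themselves, the highest r was 0.85, between Itgax and Icam1.

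Of 25 tested genes of integrin activation and linkage to actin, 10 rose and 2 fell in DBA/2 mice (median 0.25), and 10 rose and 3 fell in B6 mice (median 0.18), while the strain difference was called for 1. With scaling on pan-leukocyte genes 1 rose and 2 fell in DBA/2 mice, and without scaling 2 and 2, against 17 and 1 in B6 mice without scaling, so that the count of this group depends on the scaling. Pxn, the focal adhesion adaptor paxillin, rose by 0.99 in DBA/2 mice (adjusted p = 0.0010) and changed by 0.37 in B6 mice (adjusted p = 0.12). Rassf5, the Rap1 effector RAPL, rose by 0.57 and Vcl, vinculin, by 0.48, while Cyth1, a regulator of LFA-1 adhesion, fell by 0.48 in DBA/2 mice. Vcl rose by 0.87 in B6 mice.

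Of 13 selectin genes and genes of selectin ligand synthesis, 6 rose and 0 fell in DBA/2 mice (limma, adjusted p under 0.05), and 3 rose and 1 fell in B6 mice. Scaled on pan-leukocyte genes, 4 rose and 3 fell in DBA/2 mice. St3gal4, a sialyltransferase that completes selectin ligands, rose by 1.03 in DBA/2 mice (adjusted p = 0.0047). Selp, the P-selectin of platelets and endothelium that binds PSGL-1, rose by 0.94 in DBA/2 and by 0.87 in B6 mice. Cd44, a hyaluronan receptor, rose by 0.58 in DBA/2 and by 0.53 in B6 mice.

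Of 13 other ligands of leukocyte integrins, 4 rose and 2 fell in DBA/2 mice, and 2 rose and 5 fell in B6 mice; the counts were 2 and 4 in DBA/2 mice with scaling on pan-leukocyte genes, and 4 and 2 in B6 mice without scaling. Fn1, fibronectin, which hepatocytes secrete into plasma, rose by 2.06 in DBA/2 and fell by 1.85 in B6 mice, where hepatocyte genes fell as well, and their part in it was not tested. Spp1, osteopontin, rose by 1.43 in DBA/2 mice and Cdh1, the E-cadherin that the alphaE chain binds, by 0.39. Thy1 fell by 0.35 in DBA/2 mice and Icam2 by 0.35. Vcam1, the endothelial ligand of alpha4, was not tested because its probe was too dim.

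Among 12 other integrin chains tested, Itgb8 fell by 0.91 and Itga2b, the platelet alphaIIb chain, rose by 0.52 in DBA/2 mice, and in B6 mice 3 rose. The platelet beta3 chain Itgb3 was among these, at 0.84, with a strain difference of -0.63 (adjusted p = 0.0033). A list of 12 adhesion molecules of junctions and transmigration also holds Cd2, Cd6, Cd48 and Sirpa, which are not junctional. Of these 12, 2 rose and 2 fell in DBA/2 mice. Sirpa, the myeloid receptor of Cd47, rose by 1.36 and Alcam by 0.84. Cd6, the T cell partner of Alcam, fell by 0.94 and Cd99l2 by 0.46. In B6 mice 3 rose and 2 fell. Scaled on pan-leukocyte genes, 1 rose and 6 fell in DBA/2 mice, and without scaling 8 rose and 0 fell in B6 mice (limma).

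Ordered by level, neighbouring groups among the 10 overlapped for some members and not for others. For Itgb7 no group overlapped with the next lower one. For Icam1 DBA/2 mice at 0 w were lowest and at 9 w highest, and B6 mice at 0 w overlapped with DBA/2 mice at 8 w and were above DBA/2 mice at 4 w on the mean, with overlapping samples. For Itgam the order ran from B6 mice at 4 w to DBA/2 mice at 8 w, the latter overlapping with DBA/2 mice at 4 w. For Itgb2 the order ran from DBA/2 mice at 0 w to B6 mice at 8 w, and the DBA/2 groups from 4 w on overlapped with their neighbours. For Itga4 each group except DBA/2 mice at 4 w overlapped with the next lower one.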

How the data were processed

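Circulating leukocytes had been captured from whole blood by LeukoLOCK, and their Cy3-labelled RNA was run on single-color Agilent whole mouse genome arrays. The authors deposited for every spot the processed signal of Feature Extraction 9.5.3.1, an intensity on a linear scale after background subtraction, and a value table holding the same intensity unscaled. Here outlier spots were left out, the spots of a probe and the 2 arrays of 1 sample were averaged, and from each array's log2 signals their 75th percentile was subtracted, taken over 11536 probes that all 19 arrays measured well above background. A probe was well above background where at least 50% of its spots were. Those reaching this in 2 or more of 18 samples, 22939 probes, entered a limma 3.58.1 fit in R 4.3.3 with a mean per group and all groups together (8 residual and 1.37 prior degrees of freedom). Benjamini-Hochberg adjusted p values under 0.05 were called; a few probes drop out where a group has no value. The number of arrays limits the precision. The fit was tested on simulated data. Python 3.11.15, pandas 2.3.3 and matplotlib 3.10.9 made the tables and plots.

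The members and all gene lists, drawn from general knowledge, were chosen with earlier results of these data known. All 10 members are named by every probe, from each other adhesion list up to 4 genes with the largest DBA/2 change past the threshold, and for each member the 3 genes most like it. A few genes that this rule names are not reported here. Itgb3, Icam2, Vcam1 and the marker genes named as dim were named after their values were seen. The arrays lie on 6 slides scanned on 2 days, and the replicate number is the scan day. No slide holds both a B6 array and a DBA/2 array of 0 w to 8 w. The DBA/2 arrays of 9 w lie on slides 3 and 6, apart from those of 0 w.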

Additional observations from a re-analysis of the deposited data

Results flagged for a closer look

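The change from 0 w to the mean of 4 w and 8 w differed between DBA/2 and B6 mice by limma's test of the difference for 10 member probes. The DBA/2 change minus the B6 change was 1.06 for Itgam probe 1, 1.36 for Itgam probe 2, 1.14 for Itgax probe 1, 0.70 for Itgb2, 0.47 for Itgb7 (-0.13 without scaling), 0.48 for Selplg probe 1 (-0.12 without scaling), 0.77 for Selplg probe 2 and 1.05 for Icam1 probe 1. It was -0.98 for Itga4 probe 2. The fitted 2.25 for Icam1 probe 2 gives no fold, since 16 of the 18 samples were not well above background. For Icam1 probe 2 the call was lost without B6 0 w replicate 1 (adjusted p = 0.070) or DBA/2 0 w replicate 1 (adjusted p = 0.073), and for Itgam probe 2 without B6 0 w replicate 1 (adjusted p = 0.068) or DBA/2 0 w replicate 2 (adjusted p = 0.065). With at most 2 samples a group, outlying samples could not be tested for.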

How the results depend on the processing

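The member probes called were 10 for DBA/2 mice over 4 w and 8 w, 7 for B6 mice, 10 for the strain difference, 12 at 0 w, and, summed over the single weeks, 40 in DBA/2 and 19 in B6 mice. After normexp background correction they were 4, 0, 0, 3, 12 and 1. The members at an unadjusted p under 0.05 were then 2 in B6 mice and 6 in the strain difference, and limma called 179 and 90 of all probes. In DBA/2 mice over 4 w and 8 w it called 586 of all probes, and at 0 w 1182. Without a filter on dim probes 3 were called in B6 mice, where 1632 of all 41174 probes were. At 0 w 7 were called without the filter, where 5259 of all 41172 probes were, and 11 at single B6 weeks. With B6 mice fitted alone there were 3 over 4 w and 8 w, where 2121 of all 22939 probes were called, and 12 at single weeks. At 8 w alone the strain difference was called for 6, where of all 22936 probes 1650 were called positive and 2367 negative. Unscaled values gave 31 calls at single B6 weeks and slide as a random block 35. For single weeks under these other settings, the share of all probes called is not reported here. Leaving out 1 sample gave 9 to 11 in DBA/2 mice, 2 to 7 in B6 mice (3 without B6 0 w replicate 1, 2 without B6 0 w replicate 2), 8 to 10 for the strain difference, 8 to 12 at 0 w, 30 to 41 at DBA/2 weeks and 12 to 19 at B6 weeks (12 without B6 0 w replicate 2). The causes were not tested.

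Replicate numbers do not pair samples by the labels, and the replicate 1 minus replicate 2 differences of 28 pairs of groups had correlations of -0.01 to 0.46. With the replicate block 12, 9, 11 and 14 member probes were called, and 44 and 28 at single weeks. Of all probes, 6568, 4766, 4199 and 8725 were called with the block, against 5246, 3445, 3029 and 7495 without it. The counts of all probes thus rose as well.

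Of the alternatives to the called changes of main probes, 717 kept sign and call, 76 lost the call and 13 turned. The 717 include fits without a sample that the comparison does not use, where the estimate could not change. The tally is therefore not a measure of stability. Without scaling, which moves the median of all probes by 0.53 in B6 mice, -0.60 in the strain difference and 0.82 at 0 w, the B6 changes of Itgax, Itgb7 and Icam1 were 0.18, 0.12 and 0.19, the strain differences of Itgb7 and Selplg -0.13 and -0.12, and the differences at 0 w 0.0449 for Itgax, 0.45 for Itgb1, 0.52 for Selplg and 0.12 for Icam1. The Itgam change in B6 mice was -0.10 after normexp. With 4 w in place of 0 w, DBA/2 minus B6 was 0.57 for Itgax, 0.59 for Selplg and 0.37 for Icam1. Pan-leukocyte scaling moved the median of all probes by -0.27 in DBA/2 mice. Normexp correction, with its offset of 50, moved this median by 0.04 in DBA/2 mice and -0.24 in B6 mice. The shift was 0.26 in the strain difference and -0.50 at 0 w. The part of the offset in the lost calls was not tested.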
